A study of Mus musculus with 12 samples.

Results

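The Hox genes of the HoxA, HoxB, HoxC and HoxD clusters were followed in mouse muscle progenitors by RNA-seq. Members were all entries of the expression table whose symbol is Hox, a cluster letter and a paralog number, leaving out antisense and opposite-strand entries. This gave 39 genes of the 23284 symbols in the table, 11 of HoxA, 10 of HoxB, 9 of HoxC and 9 of HoxD. In mm10 with GENCODE M21 gene models, HoxA lies on chromosome 6 (minus strand), HoxB at chr11:96194316-96368256, HoxC at chr15:102921103-103036852 and HoxD at chr2:74668310-74765142 (all 3 on the plus strand).

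Hox genes encode homeodomain transcription factors that give cells their position along the body axis and along the limb. Within each cluster their order on the chromosome follows the order of their expression along the axis, so that low paralog numbers are active from the hindbrain and neck backwards and high paralog numbers in the trunk, tail and distal limb. Adult cells, muscle progenitors and fibroblasts among them, can keep a Hox pattern that follows their place in the body. Members are grouped here as anterior (paralogs 1 to 4, 12 genes), central (paralogs 5 to 8, 11 genes) and posterior (paralogs 9 to 13, 16 genes).

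The 12 libraries fell into 4 groups of 3, all labelled strain 129P2/OlaHsd. All were sorted as CD31- CD45- a7-Integrin+ VCAM+ cells, a gate for muscle progenitors that is meant to leave out endothelial cells and leukocytes. The teratoma group came from teratomas 3 weeks old, tumours of mixed tissue that grow from pluripotent cells. The transplant group was sorted from tibialis anterior, a hindlimb muscle, 1 month after it had received teratoma-derived cells of the same gate. Embryo cells were sorted from whole E14.5 embryos and adult cells from total hindlimbs of males 8 weeks old, so stage and body site cannot be told apart in adult against embryo. The labels name neither the pluripotent cell line nor the host strain, and the recorded gate holds no donor marker, so a share of host cells in the transplant libraries cannot be told from the labels. Each group's 3 libraries are biological replicates by the design text, which names no separate animals; the p-values thus cover the spread among these 12 samples. In bulk RNA, fewer cells of a type and less RNA per cell cannot be told apart.

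Values are FPKM, fragments scaled by transcript length and by the library's total, a unit per length in which genes can be set side by side. Values of a group are given in replicate order. Changes are differences of mean log2(FPKM + 1), which understate those of low genes, with their standard error (SE) and a limma p adjusted by Benjamini-Hochberg over all 12699 symbols tested. Calls required an adjusted p below 0.05. Read depth was not given. From the steps between low values, 1 fragment was worth from 0.760 (embryo 1, the deepest) to 1.21 (embryo 2, the shallowest) of its value in teratoma 1. Embryo 2 also held 394 exact zeros in genes whose other 2 embryo libraries reached 1 FPKM, against 25 to 99 in the other libraries, so that an exact 0 can be a failed estimate; Hoxb5 and Hoxb13 were among these.

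Muscle progenitor markers were present in every group. The summed FPKM of 9 of them was 365 to 452 in teratoma, 411 to 555 in transplant, 144.8 to 174 in embryo and 864 to 1008 in adult libraries, highest in adult and lowest in embryo cells. Pax7 alone had another order: this marker of muscle stem cells stood at 25.5, 23.5 and 20.1 FPKM in teratoma, 39.8, 32.3 and 54.8 in transplant, 14.7, 14.3 and 13.1 in embryo and 8.24, 9.02 and 10.1 in adult libraries. Markers of other cells moved with the groups. The summed FPKM of 12 fibroblast and limb mesenchyme markers was 2940 to 4836 in teratoma, 5395 to 8361 in transplant, 2447 to 3518 in embryo and 1206 to 1763 in adult libraries, with none of the 12 at 0 in any group. That of 11 neural markers was 39.6 to 52.9, 21.5 to 29.5, 40.5 to 46.2 and 17.3 to 23.0 in the same order. For 10 epithelial and endodermal markers it was 209 to 630 in teratoma and 0.0963 to 0.435 in transplant libraries, where Epcam, Ttr, Afp, Alb, Foxa2 and Reg3g were at 0, with 4.14 to 18.4 in embryo and 0.634 to 1.99 in adult libraries. 2 of these marker lists were highest in the embryo, as most Hox genes were. The summed FPKM of Hox cofactors and of retinoic acid pathway genes, lists counted further below, was highest there too. Of 6 kidney and mesonephric markers the sum was 14.6 to 23.8 in embryo and 2.17 to 4.24 in the other libraries, with Pax2 at 0 in transplant and adult libraries. Of 7 erythroid markers it was 160 to 1940 in embryo, 6.11 to 42.1 in teratoma, 0.464 to 0.811 in transplant and 2.03 to 5.54 in adult libraries. Markers of the cells that the gate is meant to leave out were present too, and were highest in teratoma libraries. Of 7 endothelial markers the sum was 42.37 to 54.15 in teratoma and 6.469 to 9.69 in transplant libraries. It was 18.05 to 42.003 in embryo and 16.41 to 27.22 in adult libraries. For 6 leukocyte markers it was 37.02 to 112.7, 12.22 to 24.09, 2.667 to 11.3 and 7.182 to 15.61 in the same order. Whether such cells passed the gate was not tested. The part of all these other cells in any Hox difference was not tested.

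RefSeq promoters (GRCm38.p6, 250 bases before to 50 after a start) were on hand for 22 of the 39 genes, as 24 sequences. Those of 4 genes are shown as called genes with an entry: Hoxa3 and Hoxd3, called higher in teratoma than in adult cells, and Hoxa10 and Hoxd13, called higher in transplant than in teratoma cells. Hoxb3, Hoxc9, Hoxc10 and Hoxc11, also called between groups, had no entry in the table used here. Capitals mark each match to TATAAA, the core promoter motif, or to AGGTCA, the half-site of retinoic acid receptors, read on either strand. Hoxa3 lies at chr6:52213018-52213317 (minus strand), Hoxd3 at chr2:74711743-74712042 (plus strand), Hoxa10 at chr6:52234890-52235189 (minus strand, 1 of 2 starts listed) and Hoxd13 at chr2:74667975-74668274 (plus strand).
Hoxa3: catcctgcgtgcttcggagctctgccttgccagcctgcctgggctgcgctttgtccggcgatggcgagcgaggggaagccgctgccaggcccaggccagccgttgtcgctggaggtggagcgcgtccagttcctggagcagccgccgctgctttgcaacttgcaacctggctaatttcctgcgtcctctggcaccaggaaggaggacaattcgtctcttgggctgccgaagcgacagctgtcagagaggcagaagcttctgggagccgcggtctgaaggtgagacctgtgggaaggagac
Hoxd3: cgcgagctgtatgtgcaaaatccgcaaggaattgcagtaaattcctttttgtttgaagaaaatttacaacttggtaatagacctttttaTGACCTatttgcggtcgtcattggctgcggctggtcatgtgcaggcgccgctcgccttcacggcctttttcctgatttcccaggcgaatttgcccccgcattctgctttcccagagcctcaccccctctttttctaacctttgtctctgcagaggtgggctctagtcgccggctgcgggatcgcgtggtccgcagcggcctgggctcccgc
Hoxa10: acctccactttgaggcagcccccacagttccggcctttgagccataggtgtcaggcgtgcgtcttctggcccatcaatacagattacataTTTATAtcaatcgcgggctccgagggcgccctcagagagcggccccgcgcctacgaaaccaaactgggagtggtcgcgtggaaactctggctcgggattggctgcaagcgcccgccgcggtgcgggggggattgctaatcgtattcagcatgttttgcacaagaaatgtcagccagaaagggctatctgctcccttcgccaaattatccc
Hoxd13: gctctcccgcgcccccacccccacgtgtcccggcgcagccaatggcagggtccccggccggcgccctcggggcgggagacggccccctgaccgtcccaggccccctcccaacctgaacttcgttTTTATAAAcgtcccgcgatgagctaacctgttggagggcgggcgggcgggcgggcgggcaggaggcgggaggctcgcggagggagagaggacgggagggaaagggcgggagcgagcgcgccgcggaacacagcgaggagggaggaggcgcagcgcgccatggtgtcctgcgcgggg
The Hoxa10 promoter holds 1 TATAAA match on the reverse strand and the Hoxd13 promoter 2 that overlap, 1 on each strand. The Hoxd3 promoter holds 1 reverse match to AGGTCA, and the Hoxa3 window none of the motifs searched. Over the 24 Hox promoters, TATAAA was found in 4 (13.6% of all 32851 promoters hold it), AGGTCA in 7 (16.3% of all), the Pbx-Hox motif TGATNNAT in 4 (8.85% of all) and the posterior Hox and Cdx motif TTTATNG in 2 (10.9% of all), each on both strands; TATAAA and TTTATNG can overlap. CG dinucleotides numbered 20 in the Hoxa3 and Hoxd3 windows, 21 in that of Hoxa10 and 37 in that of Hoxd13, against a median of 7 over all promoters. All 4 also lie above the median of the 24 Hox promoters, which is itself above that of all promoters. A match describes letters only.

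Hox RNA was most abundant in the embryo group. The summed FPKM of the 39 genes was 101, 105 and 164 in embryo libraries, 22.1, 15.5 and 22.9 in teratoma, 28.9, 20.9 and 30.5 in transplant and 18.1, 21.4 and 22.9 in adult libraries. Every embryo library lay above every other library, and the teratoma, transplant and adult ranges overlapped, with transplant 1 and transplant 3 the highest of these 9. Of the 39 genes, 32 had their highest group mean in the embryo group, 4 in adult (Hoxa6, Hoxc9, Hoxc10 and Hoxc11), 3 in transplant (Hoxa13, Hoxc12 and Hoxd13) and 0 in teratoma. In all 3 libraries, 1 FPKM or more was reached by 19 genes in embryo, 3 in adult, 3 in transplant and 1 in teratoma libraries. Listed at 0 in all 3 libraries were 10 genes in adult, 3 in teratoma, 2 in transplant and 1 in embryo libraries.

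**Figure D1:**
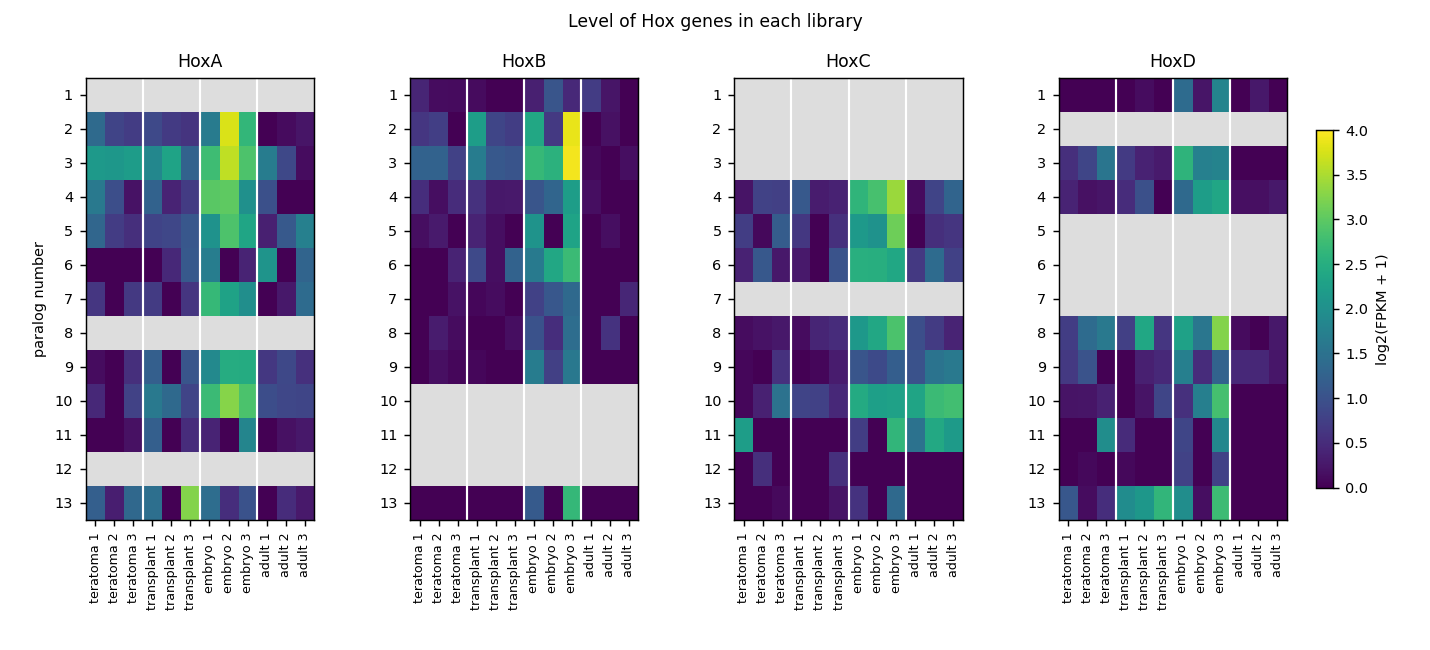
Level of 38 of the 39 Hox genes, log2(FPKM + 1) as colour, in the 12 libraries (columns, by group) with 1 panel a cluster and 1 line a paralog number; grey marks paralogs that a cluster lacks or that are not drawn. The embryo columns are bright over most paralogs, the adult columns are bright for Hoxc10 and Hoxc11, and Hoxd13 is bright in the transplant columns.

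The 4 clusters differed in how far adult cells kept them. Summed HoxB FPKM was 21.4, 14.6 and 52.1 in embryo and 0.812, 0.914 and 0.462 in adult libraries, and summed HoxD FPKM 19.4, 11 and 34.2 and 0.591, 0.684 and 0.559. Summed HoxC FPKM was 23.4, 22.9 and 39.6 in embryo and 8.51, 15.3 and 14.51 in adult libraries, so that HoxC made up 47.1, 71.4 and 63.4 percent of adult Hox FPKM against 23.2, 21.8 and 24.1 percent in embryo libraries. In transplant libraries HoxC held 9.7, 6.34 and 11.3 percent, below every library of the other groups. Summed HoxA FPKM was 37, 56.2 and 38.4 in embryo, 11, 5.98 and 8.51 in teratoma, 13.3, 7.77 and 16.5 in transplant and 8.15, 4.54 and 7.36 in adult libraries, with the last 3 groups overlapping. For HoxB and HoxD, the lowest teratoma or transplant library (1.83 and 3.31 summed FPKM) lay above the highest adult library (0.914 and 0.684). These sums are descriptions without a test.

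**Figure D2:**
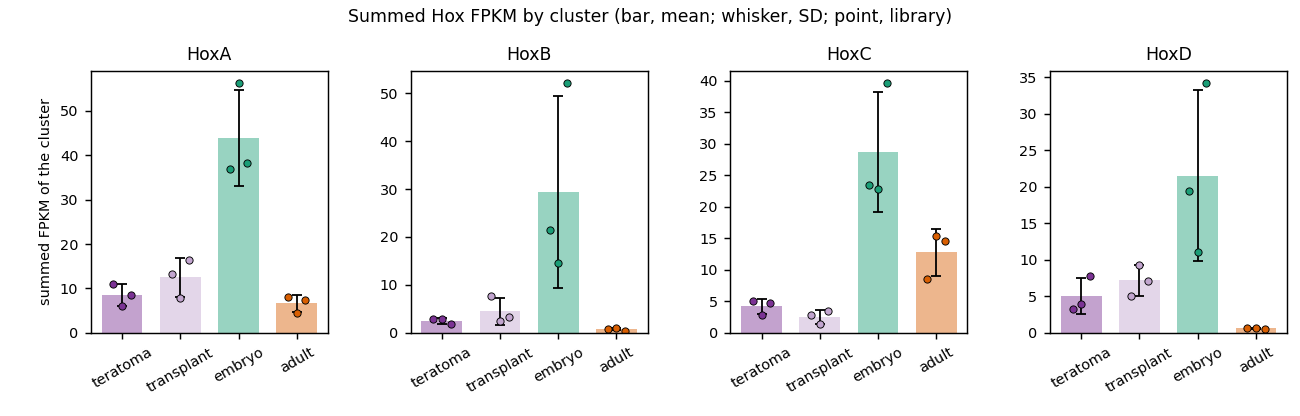
Summed FPKM of each Hox cluster (bar, group mean; whisker, SD; points, the 3 libraries of a group). Embryo libraries are highest for each cluster, adult libraries are lowest for HoxB and HoxD, and for HoxC the adult libraries (8.51 to 15.3) lie above those of teratoma and transplant.

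By paralog number, posterior genes held a larger share of Hox RNA in adult than in embryo or teratoma cells. Their summed FPKM was itself lower in adult (8.78, 14.38 and 13.38) than in embryo libraries (27.61, 21.8 and 50.14). Most of the adult sum came from the HoxC genes Hoxc9 (1.01, 1.88 and 2.08 FPKM), Hoxc10 (4.07, 5.62 and 5.92) and Hoxc11 (1.83, 4.33 and 3.52). Whether the share differed without these 3 genes was not tested. Posterior genes held 48.6, 67.1 and 58.4 percent of summed Hox FPKM in adult, 27.3, 20.8 and 30.5 percent in embryo, 33.6, 16.1 and 39 percent in teratoma and 36.7, 29.4 and 60.6 percent in transplant libraries. The mean paralog number weighted by FPKM was 7.34, 8.5 and 8.21 in adult libraries and 6.18, 5.36 and 6.34 in embryo libraries, without overlap. Teratoma (6.34, 5.19 and 6.96) and transplant (6.42, 6.78 and 9.28) libraries overlapped each other, and transplant 3, at 9.28, was the highest of all 12. Transplant 3 also held Hoxa13 at 8.60 FPKM, where transplant 1 and transplant 2 had 1.77 and 0. The genes that carried the sums differed too: group 3 paralogs were the highest paralog group in embryo (19.3 mean summed FPKM) and teratoma (5.70), group 13 in transplant (7.32) and group 10 in adult cells (6.04). In transplant cells that order rested on transplant 3: group 13 summed to 4.63, 3.35 and 14 FPKM and group 3 to 5.4, 5.46 and 2.65, so that group 3 was the higher of them in transplant 1 and transplant 2.

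In adult against embryo, the 10 tested anterior genes and 7 of 8 tested central genes were lower in adult hindlimb progenitors, while the HoxC genes Hoxc9, Hoxc10 and Hoxc11 had adult means above their embryo means, without a call. Over all 39 genes, libraries of the adult and embryo groups did not overlap for 25, all lower in adult (background 29.5% of the 18359 symbols with any signal), and for 0 higher (13.9%). Among the 26 genes past the filter on low values (1 FPKM or more in 3 or more libraries), 20 were called lower (background 36.9%) and 0 higher (15.8%). Of those 26, 15 passed the filter only with the embryo libraries, which favours genes that are higher there. The count over tested genes is thus given without weight. The median change of the 26 was -1.77, that of all tested symbols -0.42. Here and in each comparison below, a direction with 0 called Hox genes also had 0 at an unadjusted limma p under 0.05. Of 8 tested posterior genes 3 were called lower.

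Among anterior genes, Hoxb3, a hindbrain patterning gene, showed the largest change. It stood at 5.41, 4.92 and 14.2 FPKM in embryo and 0.0633, 0 and 0.114 FPKM in adult libraries, a change of -2.97 ± 0.35 (SE; adjusted p = 2.34e-05). Embryo 3 was the highest, and adult libraries were all near 0. Hoxa2, which sets the identity of the second pharyngeal arch, stood at 2.17, 12.7 and 5.3 FPKM in embryo and 0, 0.0838 and 0.173 in adult libraries, a change of -2.58 ± 0.42 (SE; adjusted p = 0.000287). Embryo 2 was the highest for it, and the groups did not overlap. Hoxa4, a neck and upper trunk gene, stood at 6.83, 7.05 and 3.03 FPKM in embryo and 0.973, 0 and 0 in adult libraries, a change of -2.34 ± 0.43 (SE; adjusted p = 0.000691). Hoxb2, active in the hindbrain, stood at 4.29, 0.577 and 13.6 FPKM in embryo libraries, with embryo 2 far below its mates, and at 0, 0.13 and 0 FPKM in adult libraries (log2 change -2.25, SE 0.65, adjusted p = 0.0113). Hoxa3, needed for pharyngeal arch organs such as the thymus, was 5.73, 11.3 and 6.4 FPKM in embryo and 2.21, 0.829 and 0.1 FPKM in adult libraries (log2 change -2.19, SE 0.40, adjusted p = 0.000588), without overlap. The adult libraries themselves were far apart for Hoxa3, with adult 1 the highest. Its gene model overlaps Hoxa4, Hoxa5 and Hoxa6 on the same strand, so these values are uncertain singly.

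Hoxd3, a neck vertebra gene, was listed at 0 in all 3 adult libraries and stood at 5.07, 2.35 and 2.47 FPKM in embryo libraries (log2 change -2.05, SE 0.31, adjusted p = 0.000169); its model overlaps Hoxd4. Hoxc4 stood at 5.13, 6.16 and 9.52 FPKM in embryo and 0.0798, 0.765 and 1.43 FPKM in adult libraries (log2 change -2.21, SE 0.36, adjusted p = 0.000265). Hoxb4 (-1.48 log2) and Hoxd4 (-1.79) were also called lower.

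Of the central genes, Hoxb6, used as a marker of early lateral plate mesoderm, was 2.09, 4.28 and 5.64 FPKM in embryo libraries, while each adult library listed it at 0 (log2 change -2.25, SE 0.34, adjusted p = 0.000146). Hoxd8, a trunk gene, was 3.91, 1.96 and 8.58 FPKM in embryo and 0.0892, 0 and 0.191 FPKM in adult libraries (log2 change -2.25, SE 0.50, adjusted p = 0.00234). Hoxc6 and Hoxc8, which mark brachial and thoracic levels, kept low adult levels. Hoxc6 stood at 4.77, 4.7 and 4.23 FPKM in embryo and 0.578, 1.63 and 0.706 FPKM in adult libraries (log2 change -1.53, SE 0.33, adjusted p = 0.00191), and Hoxc8 at 3.41, 4.26 and 6.29 and 0.954, 0.626 and 0.316 FPKM (log2 change -1.78, SE 0.26, adjusted p = 0.000113). Hoxa5 (-1.36), Hoxa7 (-1.76) and Hoxc5 (-2.05) were also called lower, and Hoxa6, at 2.25, 0 and 0.322 FPKM in embryo and 3.19, 0 and 1.44 FPKM in adult libraries, was not (log2 change 0.42, SE 0.53, adjusted p = 0.535).

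Posterior genes parted by cluster. Hoxa10, a gene of the lumbar region and proximal limb, was 5.63, 8.64 and 6.31 FPKM in embryo and 0.928, 0.805 and 0.794 FPKM in adult libraries (log2 change -2.08, SE 0.29, adjusted p = 7.83e-05); Hoxa9 (-1.58) was called lower as well. Hoxd13, a gene of the digits and the genital tubercle, was listed at 0 in all adult libraries and was 2.87, 0.103 and 5.71 FPKM in embryo libraries (log2 change -1.61, SE 0.52, adjusted p = 0.0209). Embryo 2 was near 0 for Hoxd13, and the call was lost without embryo 1 (adjusted p = 0.0681) or embryo 3 (0.0902). In contrast, Hoxc10, a gene of the lumbar level and hindlimb, was 4.47, 3.8 and 3.89 FPKM in embryo and 4.07, 5.62 and 5.92 FPKM in adult libraries (log2 change 0.28, SE 0.34, adjusted p = 0.503). Hoxc9, a thoracic gene, was 1.08, 0.864 and 1.28 and 1.01, 1.88 and 2.08 FPKM (log2 change 0.34, SE 0.26, adjusted p = 0.29), and Hoxc11, a hindlimb gene, 0.656, 0 and 5.17 and 1.83, 4.33 and 3.52 FPKM (log2 change 0.91, SE 0.67, adjusted p = 0.273). For these 3 genes the groups overlapped. The Hoxc5 gene model overlaps Hoxc6, Hoxc8, Hoxc9 and Hoxc10 on the same strand, so these values too are uncertain singly. Hoxc9 was called higher in adult cells with median-ratio scaling, Hoxc9 and Hoxc10 with quantile normalization, and Hoxc11 without embryo 3. Hoxa13 (-0.73) and Hoxd9 (-0.79) were not called.

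**Figure D3:**
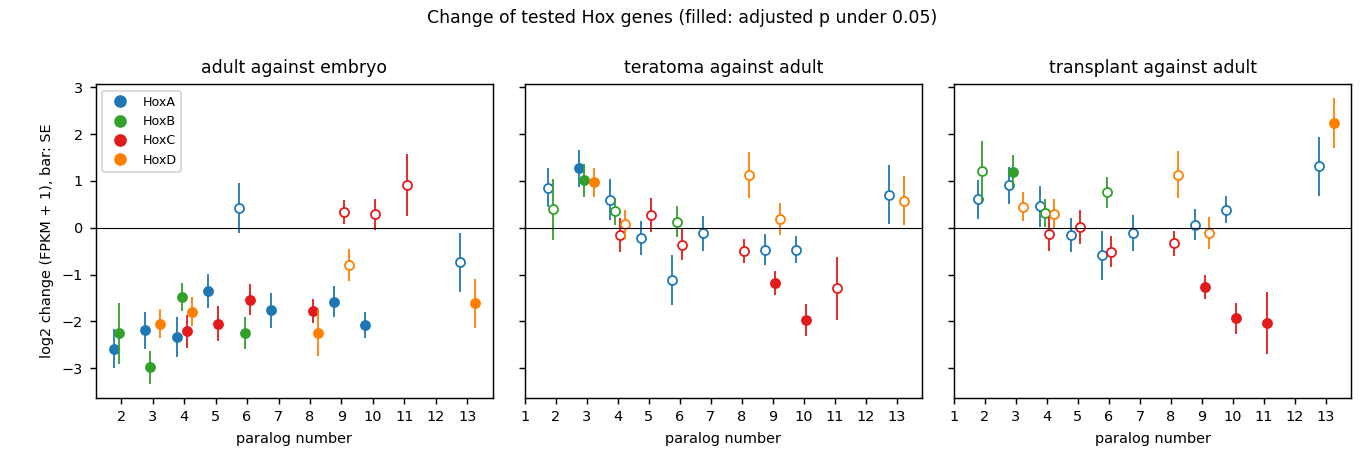
Change in log2(FPKM + 1) of 25 of the 26 tested Hox genes (points; bars, SE; filled where the adjusted p is under 0.05) by paralog number in adult against embryo, teratoma against adult and transplant against adult. In adult against embryo the 9 anterior genes drawn are filled and below 0, while Hoxc9, Hoxc10 and Hoxc11 lie above 0 and are open; the same 3 genes lie lowest in transplant against adult, where Hoxd13 is highest.

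In teratoma against embryo, teratoma progenitors held less Hox RNA over all 3 classes. Libraries did not overlap for 24 of the 39 genes, all lower in teratoma (background 12.9%), and for 0 higher (17.3%). Of the 26 tested genes 18 were called lower (background 10.6%) and 0 higher (15.5%), with the same reserve on the filter, at a median of -1.70 where that of all tested symbols was 0.01. The comparison shares its embryo libraries with adult against embryo. By class 8 of 10 anterior, 6 of 8 central and 4 of 8 posterior genes were called lower.

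The largest change was that of Hoxa10, at 0.374, 0 and 0.72 FPKM in teratoma libraries (log2 change -2.54, SE 0.29, adjusted p = 7.01e-05). Hoxc4 was 0.152, 0.727 and 0.69 FPKM in teratoma libraries (log2 change -2.37, SE 0.36, adjusted p = 0.000572), and Hoxc8 was 0.0992, 0.14 and 0.196 FPKM (log2 change -2.27, SE 0.26, adjusted p = 7.34e-05). For each of these 3 genes every teratoma library lay below every embryo library. Hoxc10 (-1.68) and Hoxc9 (-0.83), high in adult cells, were called lower than in the embryo too. The call of Hoxc9 was lost under 5 of 20 alternatives (adjusted p up to 0.116). Further calls were those of Hoxa2 (-1.73), Hoxa4 (-1.74), Hoxa5 (-1.57), Hoxa7 (-1.88), Hoxa9 (-2.05), Hoxb3 (-1.96), Hoxb4 (-1.13), Hoxb6 (-2.12), Hoxc5 (-1.77), Hoxc6 (-1.89), Hoxd3 (-1.07) and Hoxd4 (-1.72). Of these, the call of Hoxd3 was lost under 5 of 20 alternatives (adjusted p up to 0.1002) and that of Hoxb4 under 2 of 17 (up to 0.0708), and those of Hoxa2, Hoxa4 and Hoxc5 were each lost under 1 of 20. Hoxa3 was the one gene at or above 1 FPKM in all 3 teratoma libraries, at 3.46, 3.36 and 3.62 FPKM, and was not called (log2 change -0.92, SE 0.40, adjusted p = 0.11), although every embryo library was higher.

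In teratoma against adult, Hoxa3, Hoxb3 and Hoxd3 were called higher in teratoma cells and Hoxc9 and Hoxc10 lower. Of the 26 tested genes, 15 passed the filter only with the embryo libraries, which do not enter this comparison. From 5 to 8 of the 39 genes reached 1 FPKM in a teratoma library and 5 to 7 in an adult one. Most genes thus had little room for a call, so small shares beside the backgrounds carry no weight. Over the 39 genes, libraries did not overlap for 8 higher in teratoma (background 36.1%) and 5 lower (9.28%). The 8 were 5 anterior genes, Hoxd8 and the posterior Hoxd10 and Hoxd13, and the 5 were 1 central and 4 posterior genes. Of the 26 tested genes, 3 were called higher (background 36.4%) and 2 lower (8.94%), at a median of 0.10 against 0.50 for all tested symbols. With median-ratio scaling the Hox median was 0.04 and with quantile normalization it turned to -0.41, so the sign of the set's median depends on the scaling. Quantile normalization gave 0 higher and 9 lower calls, with Hoxc4, Hoxa5, Hoxc6 and Hoxc8 among the latter. The shares of all symbols called under that setting are not given here. These counts thus cannot be set against the backgrounds of 36.4% and 8.94%.

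Hoxa3 was 3.46, 3.36 and 3.62 FPKM in teratoma and 2.21, 0.829 and 0.1 FPKM in adult libraries (log2 change 1.27, SE 0.40, adjusted p = 0.0212), without overlap. Hoxb3 was 1.4, 1.39 and 0.713 FPKM in teratoma libraries against 0.0633, 0 and 0.114 FPKM in adult (log2 change 1.02, SE 0.35, adjusted p = 0.0334). Hoxd3 was 0.457, 0.777 and 1.93 FPKM in teratoma libraries and listed at 0 in adult ones (log2 change 0.97, SE 0.31, adjusted p = 0.0238). Each of the 3 calls depended on the processing: quantile normalization ended all 3 (adjusted p = 0.331 for Hoxa3, 0.475 for Hoxb3 and 0.271 for Hoxd3), and 0 of them were called without adult 2 or without adult 3. Median-ratio scaling ended that of Hoxa3 (0.0865). Without teratoma 3 only Hoxb3 was called, and without adult 1 only Hoxa3.

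On the other side, Hoxc10 was 0.0549, 0.293 and 1.86 FPKM in teratoma libraries, of which teratoma 3 was the highest, against 4.07, 5.62 and 5.92 FPKM in adult libraries (log2 change -1.96, SE 0.34, adjusted p = 0.000639). Hoxc9 was 0.0474, 0 and 0.485 FPKM in teratoma and 1.01, 1.88 and 2.08 FPKM in adult libraries (log2 change -1.17, SE 0.26, adjusted p = 0.00299). Neither gene overlapped between the groups, and both calls held under all 20 alternatives. Hoxc11 was 3.67, 0 and 0 FPKM in teratoma libraries, with teratoma 1 alone above 0, and was not called (log2 change -1.29, SE 0.67, adjusted p = 0.134); it was called lower with either scaling and without teratoma 1.

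In transplant against teratoma, few Hox genes were called. From 5 to 8 of the 39 genes reached 1 FPKM in a teratoma library and 5 to 10 in a transplant one. This left little room for a fall, so the lack of lower calls carries no weight. Libraries did not overlap for 2 of the 39 genes, Hoxa10 and Hoxd13, both higher in transplant (background 6.98%), and for 0 lower (26.1%). The same 2 were the genes called higher of 26 tested (background 4.18%), with 0 called lower (18.5%). The Hox median was 0.02 and that of all tested symbols -0.28; under the scalings it was 0.13 and 0.36.

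Hoxd13 stood at 1.12, 0.1 and 0.438 FPKM in teratoma and 2.86, 3.35 and 5.22 FPKM in transplant libraries (log2 change 1.66, SE 0.52, adjusted p = 0.0406). All 3 transplant libraries lay above all teratoma and adult libraries and within the embryo range. Hoxa10 stood at 0.374, 0 and 0.72 FPKM in teratoma and 2.07, 1.58 and 0.769 FPKM in transplant libraries (log2 change 0.86, SE 0.29, adjusted p = 0.04999), transplant 3 lying just above teratoma 3. Neither call was stable. A pseudocount of 0.1 ended both (adjusted p = 0.0792 for Hoxd13 and 0.0506 for Hoxa10), as did the test without the filter (0.0637 and 0.0688). Leaving out a library lost 1 or both calls for each of the 12 libraries except embryo 2. Hoxa13, a gene of the distal limb, was 1.31, 0.266 and 1.55 FPKM in teratoma and 1.77, 0 and 8.6 FPKM in transplant libraries (log2 change 0.61, SE 0.63, adjusted p = 0.529), with overlap.

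**Figure D4:**
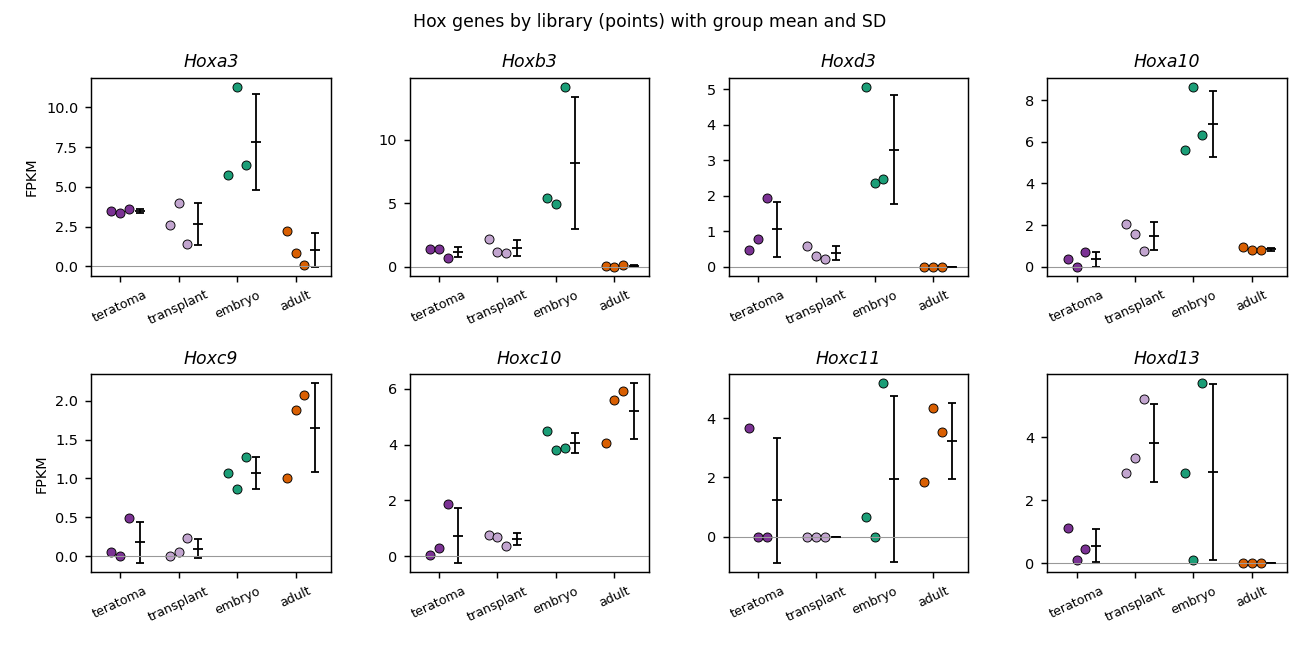
FPKM of 8 Hox genes by library (points) with group mean and SD. Hoxa3, Hoxb3, Hoxd3 and Hoxa10 are highest in embryo libraries, Hoxc9 and Hoxc10 are high in embryo and adult libraries, and Hoxd13 is high in the 3 transplant libraries (2.86 to 5.22) and at 0 in adult ones.

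In transplant against adult, both groups from hindlimb muscle, Hoxd13 and Hoxb3 were higher in transplant cells and Hoxc9, Hoxc10 and Hoxc11 lower. Libraries did not overlap for 9 of the 39 genes higher in transplant (background 25.8%) and 3 lower (16.8%), shares near or below the background. From 5 to 10 of the 39 genes reached 1 FPKM in a transplant library and 5 to 7 in an adult one, so small shares carry no weight here either. By class, 6 of 12 anterior, 2 of 11 central and 1 of 16 posterior genes were higher without overlap, and 3 posterior genes lower. Of 26 tested genes, 2 were called higher (background 27.3%) and 3 lower (16.9%), at a median of 0.30 against 0.23 for all tested symbols and -0.07 with quantile normalization.

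Hoxd13, at 0 in each adult library, changed by 2.24 ± 0.52 (SE; adjusted p = 0.00463). Hoxb3 was 2.21, 1.15 and 1.05 FPKM in transplant libraries, transplant 1 being the highest, against adult libraries near 0 (log2 change 1.19, SE 0.35, adjusted p = 0.016). Without transplant 1 the call of Hoxb3 was lost (adjusted p = 0.0687). Hoxc10 was 0.769, 0.706 and 0.375 FPKM in transplant libraries, all below the lowest adult library at 4.07 FPKM (log2 change -1.94, SE 0.34, adjusted p = 0.000707). Hoxc9 was 0, 0.0476 and 0.23 FPKM in transplant libraries (log2 change -1.26, SE 0.26, adjusted p = 0.00188), again without overlap. Hoxc11 was listed at 0 in all 3 transplant libraries and was 1.83, 4.33 and 3.52 FPKM in adult ones (log2 change -2.03, SE 0.67, adjusted p = 0.0274). That call was lost without the filter (0.0528) and on leaving out any one transplant library, adult 2 or adult 3 (0.0599 to 0.0831). The calls of Hoxd13, Hoxc9 and Hoxc10 held under all 20 alternatives.

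Among the noncoding entries of the clusters, Hotair, a noncoding RNA transcribed between Hoxc11 and Hoxc12, was 1.3, 0.437 and 0.512 FPKM in adult libraries, 0, 0 and 0.106 FPKM in teratoma libraries and 0 in each transplant and embryo library. Every adult library was above every other library, but the levels were too low to pass the filter. The opposite-strand entry of Hoxa11 was 2.4, 5.24 and 3.53 FPKM in embryo and 2.23, 0 and 5.61 FPKM in transplant libraries, against 0.325, 0 and 2.54 and 1.3, 0 and 0.428 FPKM for Hoxa11 itself. Whether counting used strand was not given in the sources used here, so reads of the pair cannot be told apart.

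In transplant against embryo, most Hox genes were lower in transplant cells. Libraries did not overlap for 25 of the 39 genes, all lower (background 24.3%), and for 0 higher (13.2%). Of the 26 tested genes 19 were called lower (background 27.6%) and 0 higher (14.9%), at a median of -1.51 against -0.24, with the reserve on the filter given above. The largest changes were those of Hoxc4, at 1.16, 0.233 and 0.304 FPKM in transplant libraries (log2 change -2.35, SE 0.36, adjusted p = 0.000249), Hoxc8, at 0.0957, 0.337 and 0.422 FPKM (log2 change -2.11, SE 0.26, adjusted p = 4.77e-05), and Hoxc6, at 0.214, 0 and 1.03 FPKM (log2 change -2.04, SE 0.33, adjusted p = 0.000386). None of these 3 HoxC genes overlapped between the groups. Further calls ran from -0.92 (Hoxc9) to -2.04 (Hoxc5). Among the genes not called, Hoxd13 (log2 change 0.62, SE 0.52, adjusted p = 0.368) and Hoxa13 (log2 change 0.58, SE 0.63, adjusted p = 0.488) had changes above 0.

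The change from embryo to adult was set against that from teratoma to transplant, groups that share no library. Of the 26 tested genes, 20 had a more positive change in transplant against teratoma than in adult against embryo (background 21.7%) and 0 a more negative one (17.2%), at a median difference of 1.81 against 0.20 for all tested symbols. The embryo libraries that let 15 of these genes pass the filter enter this difference, so this count, too, is given without weight. The largest differences were those of Hoxd13 (log2 change 3.27, SE 0.74, adjusted p = 0.00473), Hoxb3 (log2 change 3.15, SE 0.50, adjusted p = 0.000527) and Hoxb2 (log2 change 3.06, SE 0.92, adjusted p = 0.0201). In teratoma libraries Hoxd13 was 1.12, 0.1 and 0.438 FPKM, Hoxb3 1.4, 1.39 and 0.713 and Hoxb2 0.545, 0.668 and 0. From such levels these genes could not fall as far as they did from embryo to adult. The sign of these differences was thus fixed beforehand, and their limma p-values are given without weight. Hoxc9 (log2 change -0.43, SE 0.36, adjusted p = 0.372) and Hoxc10 (log2 change -0.25, SE 0.48, adjusted p = 0.703) were not called.

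**Figure D5:**
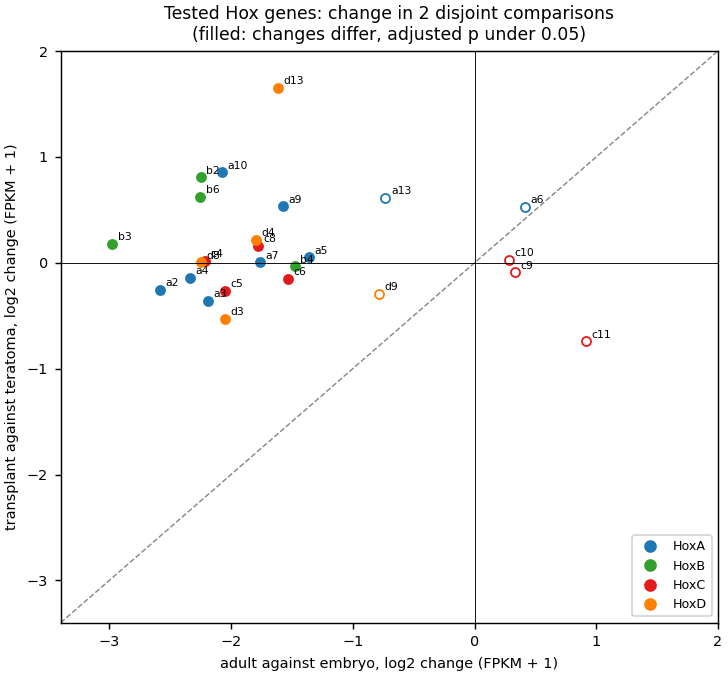
Change in log2(FPKM + 1) of 25 of the 26 tested Hox genes in adult against embryo (horizontal) and in transplant against teratoma (vertical); filled points are the 19 genes drawn whose changes differ at an adjusted p under 0.05, and the dashed line marks equal changes. Most genes lie left of 0 and near 0 on the vertical axis; Hoxd13 is the highest point and Hoxb3 the leftmost.

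The 13 genes below the filter were low throughout. Hoxb13 reached 5.34 FPKM in embryo 3 and 1.2 in embryo 1 and was 0 elsewhere, and Hoxd10 reached 6.05 FPKM in embryo 3. Hoxb5 (3.98 FPKM), Hoxa11 (2.54), Hoxd1 (2.48), Hoxb8 (1.68), Hoxb7 (1.58) and Hoxc13 (1.57) were also highest in embryo 3. Hoxb9 (2.19 FPKM) and Hoxd12 (0.734) were highest in embryo 1, Hoxb1 (1.09) in embryo 2, Hoxd11 (2.88) in teratoma 3 and Hoxc12 (0.462) in transplant 3. Tested without the filter, 27 of the 39 genes were lower in adult than embryo libraries (background 25.4%) and 0 higher (10.7%).

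Genes that work with or act on Hox genes were counted as whole lists. Of 8 tested TALE cofactors (homeodomain partners that bind DNA with Hox proteins), 1 was called higher (background 15.8%) and 5 lower (36.9%) in adult against embryo. Meis2 was 9.92, 16.9 and 27.3 FPKM in embryo and 0.787, 0.459 and 0.509 FPKM in adult libraries (log2 change -3.49, SE 0.32, adjusted p = 3.05e-06), and Meis1 11.4, 8.84 and 16.8 and 0.744, 0.22 and 1.02 FPKM (log2 change -2.99, SE 0.37, adjusted p = 3.03e-05). Both fell without overlap. In transplant cells Meis2 was 6.11, 6.24 and 4.68 FPKM and Meis1 7.04, 6.29 and 2.41 FPKM, both called higher than in adult cells (2.07 and 1.84 log2). Pknox1 had the opposite order, at 8.92, 7.98 and 7.11 FPKM in transplant and 19.2, 23 and 21.5 FPKM in adult libraries (log2 change -1.31, SE 0.21, adjusted p = 0.000392). Between transplant and teratoma 1 of the 8 was called lower (background 18.5%), Pbx3 (log2 change -1.47, SE 0.43, adjusted p = 0.0296).

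Retinoic acid, made from vitamin A, is a classic inducer of anterior Hox genes. Of 16 tested genes of its pathway, 2 were called higher (background 15.8%) and 9 lower (36.9%) in adult against embryo, and 10 higher (36.4%) and 0 lower (8.94%) in teratoma against adult. Crabp1, a retinoic acid binding protein, was 76.7, 74.2 and 91.7 FPKM in embryo, 0.436, 5.78 and 13.2 in teratoma, 0.218, 1.57 and 0.688 in transplant and 0, 0 and 0.213 in adult libraries. It fell in adult against embryo (log2 change -6.26, SE 0.62, adjusted p = 5.93e-06), and so did Aldh1a2, a retinoic acid synthesis enzyme (log2 change -2.53, SE 0.46, adjusted p = 0.000655). Aldh1a1, another such enzyme, had the opposite order, at 0.445, 0 and 0 FPKM in embryo and 7.53, 5.42 and 5.46 FPKM in adult libraries (log2 change 2.65, SE 0.40, adjusted p = 0.000154).

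Polycomb proteins keep Hox genes silent and trithorax proteins keep them active. Of 16 tested Polycomb genes, 2 were called higher (background 15.8%) and 8 lower (36.9%) in adult against embryo, and 2 higher (4.18%) and 4 lower (18.5%) in transplant against teratoma. Cbx2, a Polycomb subunit, was 5.62, 5.47 and 5.23 FPKM in embryo and 0, 0.108 and 0 FPKM in adult libraries (log2 change -2.64, SE 0.27, adjusted p = 6.65e-06). Ezh2, the methyltransferase of Polycomb, was 17.6, 13.7 and 16.5 FPKM in teratoma and 3.54, 4.83 and 4.89 FPKM in transplant libraries (log2 change -1.64, SE 0.19, adjusted p = 0.000162), without overlap. Of 10 tested trithorax and H3K27 demethylase genes, 1 was called higher (background 15.8%) and 5 lower (36.9%) in adult against embryo. Kdm6b, a demethylase of H3K27, was named after its values were seen and, unlike the 5 genes called lower, was higher in adult libraries. It was 26.4, 32.8 and 37.2 FPKM in embryo, 202, 193 and 228 in adult, 98.1, 113 and 101 in teratoma and 43.2, 64.8 and 71.6 in transplant libraries, 4 ranges that did not overlap. The 10 ParaHox and cluster neighbour genes, among them Cdx1, Cdx2 and Cdx4, summed to at most 1.75 FPKM in any library and none was tested. Of 13 limb and head position genes, 1 was called higher (background 15.8%) and 6 lower (36.9%) in adult against embryo. Tbx4, which marks the hindlimb and was named after its values were seen, was 2.11, 2.91 and 2.33 FPKM in teratoma, 4.17, 3.2 and 2.72 in transplant, 0.947, 0 and 1.11 in embryo and 1.19, 1.5 and 1.79 in adult libraries. The 13 genes as a whole had another order. Their summed FPKM was 102 to 125 in teratoma, 74.1 to 89.9 in transplant, 113 to 158 in embryo and 89.0 to 116 in adult libraries.

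Scaling moved all genes in several comparisons. With median-ratio scaling the median change of all tested symbols went from -0.42 to -0.04 in adult against embryo, from 0.50 to 0.12 in teratoma against adult and from -0.28 to -0.03 in transplant against teratoma. The share of called symbols that were higher went from 29.96% to 49.8%, from 80.3% to 53.0% and from 18.5% to 43.4%. In transplant against embryo it went from 35.0% to 51.3%. The calls of Hox genes lower than in the embryo stayed between 18 and 21 of 26 under both scalings in the 3 comparisons with that group. These counts stand without the shares of all symbols called lower under the scalings. With the reserve on the filter given above, they too carry no weight.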

How the data were processed

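Total RNA of 12 sorted mouse cell samples was sequenced from SMARTer Stranded Total RNA-seq (Pico) libraries, per the labels' protocols. Tools named in the submitters' processing notes, without roles, are Partek, Cufflinks 2.2.1.0, TopHat 0.7 and CASAVA 1.8.2, with build mm10. Per the file headers, the authors deposited FPKM for each symbol in each library in 1 table. FPKM is scaled by length and library total, so read depth and counting error are not given, and large changes in abundant RNA shift all other genes. Of 23746 entries, 462 repeated one of 240 symbols and were summed, leaving 23284; no Hox symbol was repeated.

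Groups came from sample titles. Symbols reaching 1 FPKM in 3 or more libraries (12699, 26 of 39 Hox genes) were tested on log2(FPKM + 1) with limma 3.58.1 in R 4.3.3, in 1 model of 4 group means (intensity trend in the empirical Bayes step, 8 residual degrees of freedom). P-values of 6 comparisons and 1 difference between comparisons were adjusted by Benjamini-Hochberg over all tested symbols. Libraries that do not overlap were counted over all 39 genes against all symbols with any signal (18359). The steps were tested on simulated data.

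The members, gene lists and tests were chosen with earlier results of these data known. Values in every library are given for the 3 members of each cluster with the highest mean FPKM, and for up to 3 called members with the largest change in each direction of a comparison whose higher mean is at least 1 FPKM. Hoxa6, Hoxa13, Tbx4, Kdm6b in all groups and the noncoding entries were named after their values were seen. Alternatives were a pseudocount of 0.1, no filter, median-ratio scaling, quantile normalization, only the groups compared, isolated zeros as missing, a replicate block and leaving out each library. Isolated zeros at a limit of 1 FPKM, and the sums under other settings, were chosen after seeing the data. Gene positions are those of GENCODE M21, also mm10. 1 Hox gene and 2 marker genes entered the fits, counts and sums and are not reported singly here.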

Additional observations from a re-analysis of the deposited data

Results flagged for a closer look

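For 20 of the 26 tested Hox genes, the change in transplant against teratoma differed from that in adult against embryo in limma's test of the difference itself, each with the more positive change in the former (background 21.7%; 17.2% of all symbols the other way). The count carries no weight, since 15 of the 26 passed the filter only with the embryo libraries that enter the difference. Low teratoma levels also left many of these genes little room to fall, so a positive difference was largely fixed beforehand for them. Hoxc8, for example, was 0.0992, 0.14 and 0.196 FPKM in teratoma libraries. For 19 of the 20 genes the differences, in log2(FPKM + 1) and positive where transplant against teratoma had the more positive change, were as follows. Among anterior genes they were 2.33 for Hoxa2, 1.83 for Hoxa3, 2.19 for Hoxa4, 3.06 for Hoxb2, 3.15 for Hoxb3, 1.45 for Hoxb4, 2.23 for Hoxc4, 1.52 for Hoxd3 and 2.01 for Hoxd4. Among central genes they were 1.41 for Hoxa5, 1.77 for Hoxa7, 2.88 for Hoxb6, 1.78 for Hoxc5, 1.39 for Hoxc6, 1.94 for Hoxc8 and 2.25 for Hoxd8. Among posterior genes they were 2.11 for Hoxa9, 2.93 for Hoxa10 and 3.27 for Hoxd13. Of the 20 differences, 14 kept their call under every alternative that could be run. The call of Hoxa5 (adjusted p = 0.0476) was lost with median-ratio factors (0.0834) and with quantile normalization (0.107), as was that of Hoxc6 (0.0339 as fitted, then 0.0734 and 0.0824).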

How the results depend on the processing

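Of 89 called Hox gene changes, 66 kept their call under every alternative that could be run, and 111 of 1706 alternative values lost the threshold, with 0 reversed; a gene that dropped below the filter without a library gave no value there. In adult against embryo, the count of higher genes went from 0 to 1 with median-ratio scaling, 2 with quantile normalization and 0 to 1 on leaving out a library. In teratoma against adult, the 3 higher genes became 5 with a pseudocount of 0.1, 0 with quantile normalization, 5 with only the groups compared and 0 to 4 on leaving out a library, and the 2 lower genes 4 with median-ratio scaling and 9 with quantile normalization. In transplant against teratoma, the 2 higher genes became 0 with a pseudocount of 0.1, 0 without the filter, 1 with only the groups compared and 0 to 2 on leaving out a library. In transplant against adult, the 2 higher genes became 7 with a pseudocount of 0.1, 4 with only the groups compared and 1 to 4 on leaving out a library, and the 3 lower genes 5 with quantile normalization. In transplant against embryo, 0 higher genes became 1 (Hoxa13) with isolated zeros missing at a limit of 1 FPKM. Genes whose changes differed between transplant against teratoma and adult against embryo numbered 13 to 19 on leaving out a library, the lowest without embryo 1, when fewer Hox genes could be tested. All symbols called went from 3308 to between 2123 (without teratoma 2) and 3184 in teratoma against embryo, and from 2874 to between 1524 (without teratoma 1) and 3285 in transplant against teratoma (1803 without transplant 1). The mean summed Hox FPKM of adult libraries went from 20.8 to 25.4 with median-ratio scaling. The cause of these shifts was not tested. Hox counts under the alternatives stand here without the shares of all symbols called there, so they cannot be set against the backgrounds of the main fit.

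Same-numbered libraries did not vary together (mean correlation of deviations -0.00317 over 18 pairs, 0 of them over 0.1). The numbers thus gave no sign of pairing, but a small shared effect could be missed this way, so pairing is not excluded. With the replicate block, 1 Hox gene (Hoxd13) instead of 2 was called higher in transplant against teratoma, and 19 instead of 20 differed between the changes. Most Hox values were low and the read counts behind them are unknown.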
